A study of Mus musculus with 2 samples.

Results

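The 10 genes described here encode immediate early transcription factors of the AP-1 and Egr families: Fos, Fosb, Fosl2, Jun, Junb, Jund, Atf3, Egr1, Egr2 and Egr3. They were taken as a named list, chosen to gauge the response to dissociation in a sort of retinal immune cells, and all 10 were among the 31053 genes of both count tables. Single cells of mouse retina, sorted by CD45 (a leukocyte surface protein found on microglia as well), were profiled in 1 library labelled as Igfbpl1 knockout and 1 labelled wildtype. The strain of both was C57BL/6, and per the design text each group had 10 mice of 8 to 10 months, perfused with saline. Retinas of both groups were digested with collagenase/dispase, papain and DNase for 1 h at 37 °C before the sort. The labels give neither the altered Igfbpl1 allele nor the number of mice in each library, no cell could be tied to a mouse, and other arms of the study were not analysed here. Each group was a single library, so all differences are between these libraries, no test across replicates could be made, and the intervals (95%) cover counting error only.

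AP-1 factors are dimers: Fos proteins pair with Jun proteins, Jun proteins also pair with each other, and Atf3 can pair with Jun proteins. Immediate early genes are transcribed within minutes of a stimulus by factors already present in the cell, and their messages are short-lived. Enzymatic digestion of tissue at body temperature is a known inducer of these genes in microglia, the resident macrophages of the retina, and Egr1 to Egr3 encode zinc finger factors induced in the same way.

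The library labelled knockout kept 1761 cells with a median of 4286 UMIs (unique molecular identifiers, the counted molecules), and the library labelled wildtype 2692 cells with a median of 3908. Microglia-like cells made up 1450 cells (82.3%) in the library labelled knockout and 2386 (88.6%) in the library labelled wildtype, and all 15 microglia markers were present in at least 10% of them in both libraries. The libraries shared 1 cell barcode. Igfbpl1 went against the labels, with 29 counts (3.65 CPM, counts per 1000000 UMIs, interval 2.44 to 5.24) in the library labelled knockout and 2 counts (0.181 CPM, 0.0220 to 0.656) in the library labelled wildtype. Every direction below is therefore that of the labels.

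RefSeq promoter windows, from 250 bases before to 50 after a start on GRCm38.p6, were found for 8 of the 10 genes, all but Egr1 and Egr3. The windows of 6 genes are shown because they hold TGACG, TGACNTCA or the CArG box, motifs of factors known to mediate rapid induction. The window of Fos lies at chr12:85473640-85473939 on the plus strand, Jun at chr4:95052173-95052472 on the minus strand, Fosb at chr7:19309996-19310295 on the minus strand and Junb at chr8:84978699-84978998 on the minus strand. The Atf3 window, chr1:191183284-191183583 on the minus strand, is at a start inside the gene as GENCODE M21 draws it. So is the Egr2 window, chr10:67537619-67537918 on the plus strand, 1 of 5 for that gene. Of the genes not shown, Fosl2 lies at chr5:32135801-32157842 and Jund at chr8:70698949-70700616, both on the plus strand, and Egr3 at chr14:70077203-70082614 on the plus strand. The Fosl2 window, chr5:32136222-32136521, lies inside that gene. The Jund window, chr8:70697489-70697788, ends before the gene as drawn there, so the absence of a motif in it does not cover that start. Capitals mark TGACG (the core of the cAMP response element), TGACNTCA, GCGNGGGCG (an Egr motif) and the CArG box of serum response factor, on either strand.
Fos: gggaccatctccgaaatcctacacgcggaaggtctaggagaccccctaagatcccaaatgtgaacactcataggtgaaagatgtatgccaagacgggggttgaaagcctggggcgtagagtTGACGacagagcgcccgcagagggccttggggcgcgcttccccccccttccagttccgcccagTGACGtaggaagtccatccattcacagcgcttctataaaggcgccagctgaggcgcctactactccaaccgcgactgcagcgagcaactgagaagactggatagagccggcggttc
Jun: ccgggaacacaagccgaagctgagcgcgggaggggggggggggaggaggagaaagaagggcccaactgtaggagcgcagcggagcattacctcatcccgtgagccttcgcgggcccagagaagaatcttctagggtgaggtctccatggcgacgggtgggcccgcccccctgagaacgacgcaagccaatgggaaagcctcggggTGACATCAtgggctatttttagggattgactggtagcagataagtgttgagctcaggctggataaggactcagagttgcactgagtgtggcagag
Fosb: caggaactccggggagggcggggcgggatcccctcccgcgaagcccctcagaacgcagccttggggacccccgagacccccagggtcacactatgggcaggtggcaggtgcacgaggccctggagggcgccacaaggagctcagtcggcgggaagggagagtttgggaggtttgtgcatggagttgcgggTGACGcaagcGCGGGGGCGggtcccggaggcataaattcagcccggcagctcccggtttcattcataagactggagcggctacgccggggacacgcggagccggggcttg
Junb: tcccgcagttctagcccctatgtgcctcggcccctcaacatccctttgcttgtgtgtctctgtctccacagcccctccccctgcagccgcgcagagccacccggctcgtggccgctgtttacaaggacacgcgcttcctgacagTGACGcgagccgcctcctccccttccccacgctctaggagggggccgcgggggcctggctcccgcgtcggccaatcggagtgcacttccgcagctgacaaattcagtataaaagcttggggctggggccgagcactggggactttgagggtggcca
Atf3: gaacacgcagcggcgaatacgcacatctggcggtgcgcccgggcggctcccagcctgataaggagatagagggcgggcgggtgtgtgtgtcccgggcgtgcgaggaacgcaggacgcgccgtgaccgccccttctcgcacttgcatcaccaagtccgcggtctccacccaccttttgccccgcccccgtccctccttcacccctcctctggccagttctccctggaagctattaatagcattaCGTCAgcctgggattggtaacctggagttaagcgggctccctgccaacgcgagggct
Egr2: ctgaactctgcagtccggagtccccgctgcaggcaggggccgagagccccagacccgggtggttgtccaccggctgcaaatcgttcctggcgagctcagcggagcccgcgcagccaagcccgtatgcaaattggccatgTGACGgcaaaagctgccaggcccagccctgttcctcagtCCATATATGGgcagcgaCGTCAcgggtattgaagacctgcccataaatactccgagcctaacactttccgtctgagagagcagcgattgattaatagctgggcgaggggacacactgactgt
TGACG stood in 7 of the 12 windows, from 5 of the 8 genes (Fos, Fosb, Junb, Atf3 and Egr2), and in 20.8% of the 32851 promoters of the table. Egr2 has 5 of these windows, some of which overlap, so windows and genes are not the same count. TGACNTCA, which also takes in the full element TGACGTCA, stood in the Jun window 45 bases before the start and in 8.83% of all promoters. The CArG box was found for Egr2, 72 bases before the start, and in 1.63% of all promoters, and GCGNGGGCG for Fosb and Fosl2 and in 5.55%. The AP-1 motif TGANTCA was in none of the 12 windows of these genes and in 7.81% of all promoters. These are matches of letters in a short window and no measure of binding.

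In microglia-like cells Jun, Jund, Junb and Fos were the most abundant of the 10 genes in both libraries, while Egr2, Egr3 and Fosl2 stayed below 50 CPM. The sum of the 10 was lower in the library labelled knockout. They summed to 9198 CPM (9126 to 9272), 0.920% of all UMIs, in the library labelled knockout and 10381 CPM (10317 to 10445), 1.04%, in the library labelled wildtype, a ratio of 0.886 (0.877 to 0.895). Since a 3′ tag method counts a transcript by its end, whatever its length, the CPM of these genes could be ordered. Jun ranked 33rd of all genes in the library labelled knockout and 16th in the library labelled wildtype. By depth, the summed ratio was 1.25 (1.14 to 1.37) in cells of 500 to under 2000 UMIs, 0.616 (0.600 to 0.632) from 2000 to under 4000, 0.892 (0.881 to 0.903) from 4000 to under 8000 and 1.13 (1.10 to 1.16) at 8000 or more. It was thus below 1 in 2 of the 4 depth classes.

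The Jun family carried most of the counts. Jun, the central AP-1 subunit, reached 3026 CPM (2984 to 3068) in the library labelled knockout and 3835 CPM (3797 to 3875) in the library labelled wildtype, a ratio of 0.789 (0.775 to 0.803). Jun was below 1 in 9 of 10 microglia-like clusters and in 3 of 4 depth classes. Jund, the member least dependent on stimulation, had 1944 CPM in the library labelled knockout and 2250.3 CPM in the library labelled wildtype (ratio 0.864, 0.845 to 0.883), and it too was below 1 in 9 of 10 clusters and 3 of 4 depth classes. Junb, which can restrain Jun, had 1811 CPM in the library labelled knockout and 1925 CPM in the library labelled wildtype (ratio 0.941, 0.919 to 0.963). GENCODE places Junos over Jun and Prdx2 over Junb on opposite strands. Junos had 3.78 CPM in the library labelled knockout and 5.55 CPM in the library labelled wildtype, and Prdx2 had 149.7 CPM in the library labelled knockout and 146 CPM in the library labelled wildtype. The strand setting of the counting is not given in the sources used here, so overlapping reads cannot be told apart.

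The Fos family spanned a wide range. Fos had 1139.9 CPM (1114 to 1166) in the library labelled knockout and 1230.4 CPM (1208 to 1253) in the library labelled wildtype, a ratio of 0.926 (0.900 to 0.954). Fosb, a close relative of Fos, stood at 177 CPM in both (ratio 1.00, 0.928 to 1.08). Fosl2, usually a later Fos family member, was rare, with 13.4 CPM in the library labelled knockout and 12.8 CPM in the library labelled wildtype (ratio 1.05, 0.788 to 1.38). After each cell was thinned to 1000 UMIs, Fosb was detected in 11.9% of cells in the library labelled knockout and 12.5% in the library labelled wildtype, and Fosl2 in 0.907% in the library labelled knockout and 1.28% in the library labelled wildtype.

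Atf3, a stress-induced factor, was the member with the highest ratio: 433 CPM (418 to 449.6) in the library labelled knockout and 324 CPM (313 to 336) in the library labelled wildtype, a ratio of 1.34 (1.27 to 1.41). Its share of cells did not follow. In thinned cells, Atf3 had a UMI in 15.9% of cells (14.1 to 17.9) in the library labelled knockout and 16.1% (14.6 to 17.6) in the library labelled wildtype. The fullest cell held 116 Atf3 UMIs in the library labelled knockout and 50 in the library labelled wildtype, and the ratio was below 1 in 6 of 10 clusters. In the Csmd3-led cluster, where the log2 ratio was highest at 1.18, Atf3 had 693 CPM in the library labelled knockout and 305 CPM in the library labelled wildtype. Without the fullest cell of each library the ratio was 1.31 (1.24 to 1.38).

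Egr1 had 584 CPM (565 to 602) in the library labelled knockout and 557 CPM (542 to 572) in the library labelled wildtype, a ratio of 1.05 (1.01 to 1.09). The share of thinned cells with an Egr1 UMI ran the other way, at 25.1% (22.9 to 27.5) in the library labelled knockout and 29.4% (27.6 to 31.3) in the library labelled wildtype. Egr2 had 43.5 CPM in the library labelled knockout and 45.9 CPM in the library labelled wildtype (ratio 0.947, 0.814 to 1.10). Egr3 had 26.4 CPM in the library labelled knockout and 22.1 CPM in the library labelled wildtype (ratio 1.2, 0.974 to 1.47), but 1 cell of the library labelled knockout held 35 of its 175 counts. Without the fullest cell of each library, Egr3 stood at 21.2 CPM in both. After thinning, Egr2 was detected in 3.84% of cells in the library labelled knockout and 3.53% in the library labelled wildtype, and Egr3 in 1.47% in the library labelled knockout and 1.74% in the library labelled wildtype.

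**Figure D1:**
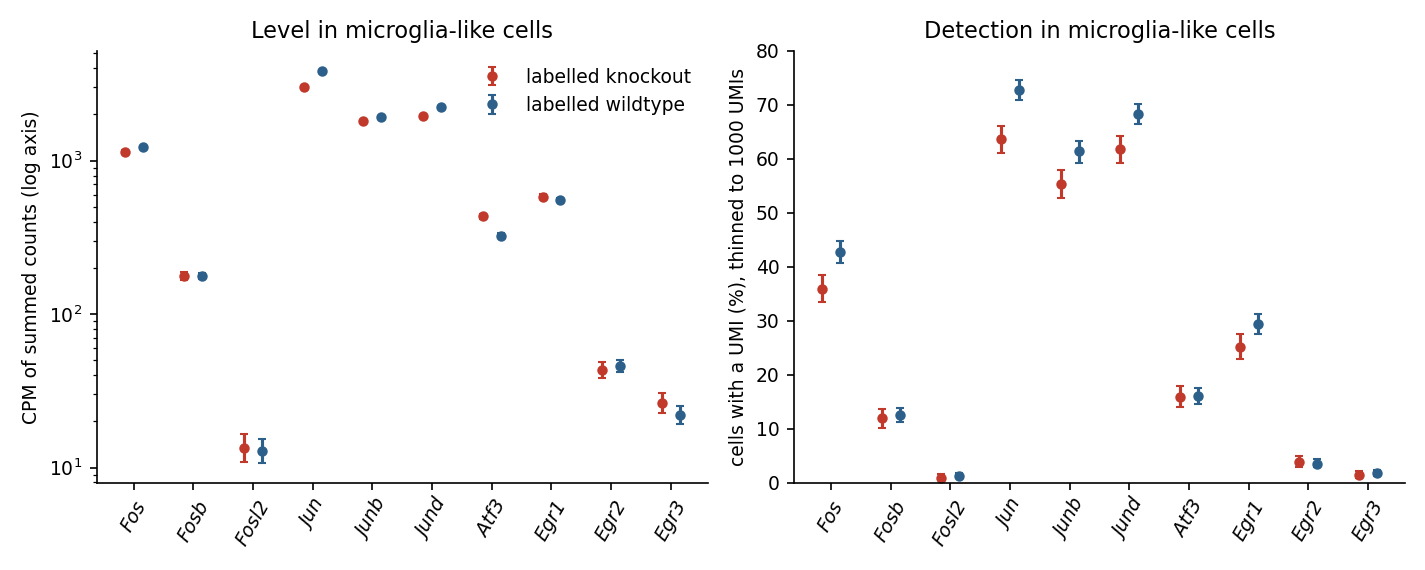
Level (left, CPM of summed counts, log axis) and detection (right, percent of cells with a UMI after thinning to 1000 UMIs) of the 10 genes in microglia-like cells of the library labelled knockout (red) and the library labelled wildtype (blue). Bars are 95% intervals of counting error, exact Poisson for levels and Clopper-Pearson for shares; Jun is the most abundant in both, and Atf3 has a higher level in the library labelled knockout but shares of 15.9% (library labelled knockout) and 16.1% (library labelled wildtype).

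Unthinned, Fos was detected in 55.7% of microglia-like cells of the library labelled knockout and 62.5% of those of the library labelled wildtype, and Jun in 75.3% of those of the library labelled knockout and 79.0% of those of the library labelled wildtype. Thinned, Fos was detected in 35.9% (33.4 to 38.4) in the library labelled knockout and 42.7% (40.7 to 44.7) in the library labelled wildtype, and Jun in 63.6% (61.1 to 66.1) in the library labelled knockout and 72.8% (70.9 to 74.6) in the library labelled wildtype. Median depths were 4378 UMIs in the library labelled knockout and 3934 in the library labelled wildtype. No class in the sort is known to lack these genes. Bipolar-like cells, which had among the lowest member sums in these data, served as a low comparison that was not set in advance. Their low Jun share is therefore no separate check. Their median depth was 6352 UMIs in the library labelled knockout and 5078 in the library labelled wildtype, and 1 of 9 thinned cells had a Jun UMI in the library labelled knockout (11.1%) and 1 of 12 in the library labelled wildtype (8.33%). Fos was not as low in them: thinned, it was detected in 22.2% of bipolar-like cells (2.81 to 60) in the library labelled knockout and 33.3% (9.92 to 65.1) in the library labelled wildtype, and unthinned in 6 of 10 cells in the library labelled knockout and 10 of 12 in the library labelled wildtype. With so few cells, the shares of Fos in bipolar-like and microglia-like cells could not be told apart.

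Of the 9 members at 20 CPM or more in either library, 1 (Atf3) was higher by 1.2-fold or more in the library labelled knockout, as were 6.80% of the 6222 genes at that level. On the lower side 1 (Jun) passed the same fold, as did 11.0% of genes. At 1.5-fold there was none in either direction, against 0.675% of genes higher and 0.900% lower. The members had a median log2 ratio of -0.08 and all genes one of -0.03. A ratio below 1 was found for 5 of these 9 members and for 3555 of the 6222 genes. That count therefore does not set the members apart from other genes.

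Other listed genes of the same response were measured in the same cells. Among 45 other immediate early genes, 32 reached 20 CPM, with a median log2 ratio of -0.17. Against 6.80% of all genes at that level higher and 11.0% lower, 1 of these passed 1.2-fold upwards and 8 downwards in the library labelled knockout. They were Nr4a1 upwards, at 1.37 (1.12 to 1.67), and downwards among others Dusp2, at 0.687 (0.584 to 0.807), both named after their values were seen. Rhob, a small GTPase gene and the most abundant of them, had 1778 CPM in the library labelled knockout and 1970.4 CPM in the library labelled wildtype. Among those at 50 CPM or more, the lowest ratio was that of Ppp1r15a, which acts in the stress response to misfolded protein, at 0.723 (0.691 to 0.756), followed by the kinase gene Plk3 at 0.764 (0.667 to 0.875). At that level Klf4, a zinc finger factor, had the highest ratio at 1.19 (1.10 to 1.28), and Gadd45b followed at 1.18 (1.06 to 1.30).

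Of 28 further AP-1 and Egr family genes and their upstream kinases, 18 reached 20 CPM, with a median log2 ratio of -0.03. Of these, 0 passed 1.2-fold upwards and 1 downwards, against 6.80% and 11.0% of all genes. Mapk3, which encodes the kinase ERK1, had a ratio of 1.19 (1.10 to 1.30) and Atf4 1.12 (1.03 to 1.21), while Atf6 had 0.815 (0.705 to 0.940). All 15 inducible heat shock genes reached the level, with a median log2 ratio of 0.05. Among them 1 passed 1.2-fold upwards and 0 downwards, against 6.80% and 11.0% of all genes. Hspa1b, the most abundant heat shock gene, had 2610.3 CPM in the library labelled knockout and 2424 CPM in the library labelled wildtype. Hspb1 had a ratio of 1.12 (1.00 to 1.25) and Hspe1 1.10 (1.05 to 1.16), against 0.908 (0.867 to 0.951) for Dnaja1 and 0.852 (0.761 to 0.953) for Dnajb4.

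Of 22 inflammatory and NF-kB feedback genes, 19 reached the level, with a median log2 ratio of -0.19. Of these, 1 passed 1.2-fold upwards and 7 downwards, 3 of them by 1.5-fold or more. Among all genes at that level 6.80% were higher and 11.0% lower by 1.2-fold, and 0.900% were lower by 1.5-fold. The chemokine gene Cxcl10 had 83.8 CPM in the library labelled knockout and 285 CPM in the library labelled wildtype (ratio 0.294, 0.268 to 0.323), and Ccl12 had 626 CPM in the library labelled knockout and 1141 CPM in the library labelled wildtype (0.549, 0.530 to 0.569). Ccl4, the most abundant of this list, had a ratio of 0.842 (0.825 to 0.859), Nfkb1 1.06 (0.972 to 1.16) and the surface protein gene Cd83 1.25 (1.17 to 1.34).

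After thinning, a cell of the library labelled knockout held a UMI of 2.76 members on average and a cell of the library labelled wildtype 3.1. These means cover the 1433 cells of the library labelled knockout and 2352 of the library labelled wildtype deep enough to be thinned, and the unthinned means were 4.25 members in the library labelled knockout and 4.52 in the library labelled wildtype. No member was detected in 17.9% of cells (16 to 20) in the library labelled knockout and 14.1% (12.7 to 15.6) in the library labelled wildtype. Just 1 member was detected in 9.49% of cells in the library labelled knockout and 8.29% in the library labelled wildtype, and 2 members in 14.6% in the library labelled knockout and 10.4% in the library labelled wildtype. At least 3 members were detected in 58.0% of cells in the library labelled knockout and 67.2% in the library labelled wildtype, and the most in any thinned cell was 8 in both. Unthinned, the members summed to a median of 31 UMIs per cell (95th percentile 138, highest 536) in the library labelled knockout and 38 (95th percentile 108, highest 395) in the library labelled wildtype. As a percentage of each cell's UMIs, which takes depth into account, the median was 0.649% in the library labelled knockout and 0.879% in the library labelled wildtype, the 95th percentile 2.13% in the library labelled knockout and 2.17% in the library labelled wildtype, and the highest 5.94% in the library labelled knockout and 6.49% in the library labelled wildtype.

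**Figure D2:**
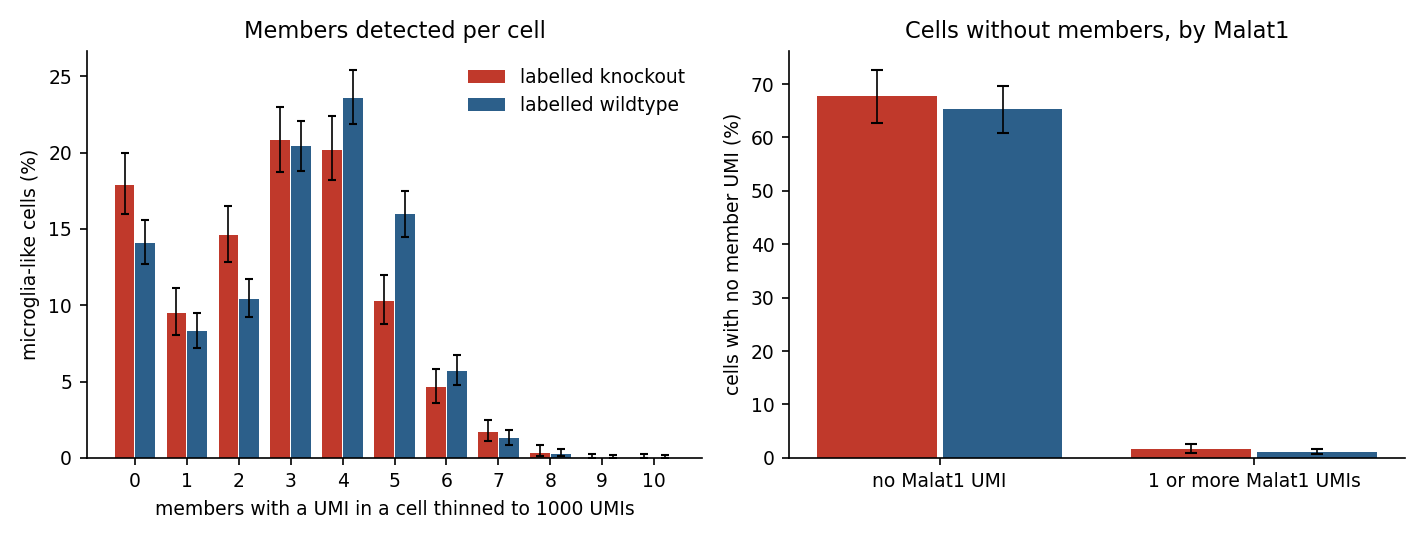
Percent of microglia-like cells by the number of members with a UMI after thinning to 1000 UMIs (left), and percent of cells with no member UMI among those without and with a Malat1 UMI (right), in the library labelled knockout (red) and the library labelled wildtype (blue). Bars are 95% Clopper-Pearson intervals; both libraries have a peak at 0 and another at 3 to 4 members, and cells with no member are 67.8% (library labelled knockout) and 65.4% (library labelled wildtype) of those without Malat1.

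The cells without members lay mainly in 2 of the 10 microglia-like clusters, which had been formed without the members and the other listed genes. In the cluster led by the mitochondrial gene mt-Nd4l the members summed to 574 CPM in the library labelled knockout and 565 CPM in the library labelled wildtype. The cluster led by the ribosomal protein gene Rpl35 had 486 CPM in the library labelled knockout and 935 CPM in the library labelled wildtype. These clusters together held 308 cells (21.2% of microglia-like cells) in the library labelled knockout and 448 (18.8%) in the library labelled wildtype, with 0.557% of the member counts in the library labelled knockout and 0.522% in the library labelled wildtype. They held 77.4% of the cells with no member in the library labelled knockout and 84.3% in the library labelled wildtype.

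Microglial genes were detected in them. P2ry12, a purinergic receptor gene of microglia, had 747 CPM in the library labelled knockout and 914 CPM in the library labelled wildtype, against 1691 CPM in the library labelled knockout and 1746 CPM in the library labelled wildtype in the other 8 clusters. Malat1, a long RNA kept in the nucleus, had 149 CPM in these clusters in the library labelled knockout and 275 CPM in the library labelled wildtype, against 22734 CPM in the library labelled knockout and 23706 CPM in the library labelled wildtype in the other 8. Ribosomal protein genes took 25.8% of UMIs in them in the library labelled knockout and 24.6% in the library labelled wildtype, against 12.5% in the library labelled knockout and 11.8% in the library labelled wildtype in the others. Their cells were shallow: the median was 1882 UMIs in the library labelled knockout and 1591 in the library labelled wildtype for the mt-Nd4l-led cluster, and 1687 in the library labelled knockout and 1341 in the library labelled wildtype for the Rpl35-led one. The part of Malat1 content, ribosomal share and depth in the low member counts was not tested.

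The other 8 clusters lay between 5700.1 and 13505 CPM in the library labelled knockout and between 6979 and 12758 CPM in the library labelled wildtype. The highest, led by Csmd3 and Tmx4, had 13505 CPM in the library labelled knockout and 12758 CPM in the library labelled wildtype. The cluster led by the interferon-induced gene Ifit3 had 5700.1 CPM in the library labelled knockout and 8677 CPM in the library labelled wildtype, and the one led by Fabp5 and Spp1 had 7646 CPM in the library labelled knockout and 7161 CPM in the library labelled wildtype. In this Fabp5-led cluster Atf3 reached 1331 CPM in the library labelled knockout and 968 CPM in the library labelled wildtype, while Jun had 1041 CPM in the library labelled knockout and 1438 CPM in the library labelled wildtype. The summed ratio was below 1 in 6 of the 10 clusters.

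**Figure D3:**
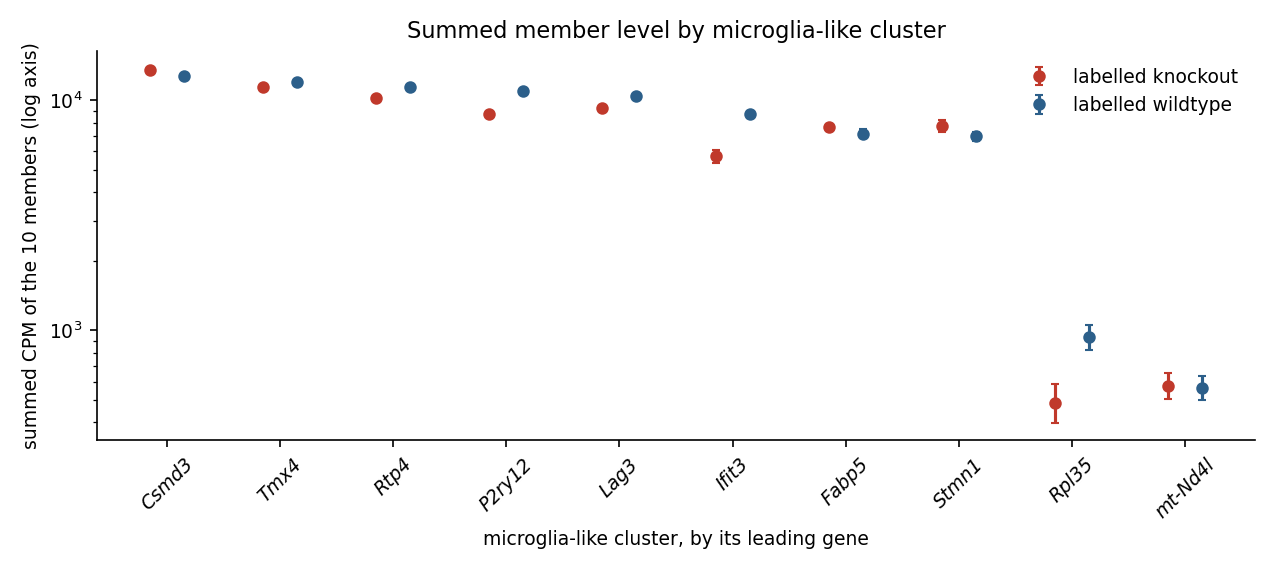
Summed CPM of the 10 genes (log axis) in each microglia-like cluster, named by its leading gene, in the library labelled knockout (red) and the library labelled wildtype (blue), with exact Poisson 95% intervals of counting error. The Rpl35-led and mt-Nd4l-led clusters lie below 1000 CPM and each of the other 8 is at or above 5700.1 CPM in both.

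The level that most resembled the number of members per thinned cell was that of Malat1, with a Pearson r over cells of 0.71 in 1433 cells of the library labelled knockout and 0.73 in 2352 cells of the library labelled wildtype. Among 2532 genes compared the median r was 0.03 in both. Next came Cx3cr1, the fractalkine receptor gene of microglia (0.45 in the library labelled knockout and 0.48 in the library labelled wildtype). Rhob had 0.43 in the library labelled knockout and 0.44 in the library labelled wildtype, and Klf2, a zinc finger factor gene, 0.47 in the library labelled knockout and 0.42 in the library labelled wildtype. The heat shock genes Hspa1a and Hspa1b, then Btg2, Ccl4, Nfkbia and Ppp1r15a followed, with 0.35 to 0.40 in the library labelled knockout and 0.35 to 0.42 in the library labelled wildtype. Of these 10 genes, 8 were in the other lists. The share of listed genes among the 2532 compared was not counted, so no excess can be read from that number. Cells of a library share its preparation, and the values carry no test. Without the mt-Nd4l-led and Rpl35-led clusters r was 0.43 in the library labelled knockout and 0.38 in the library labelled wildtype for Malat1, and 0.18 in the library labelled knockout and 0.16 in the library labelled wildtype for Cx3cr1. The 8 listed genes were lower there as well, with 0.20 to 0.29 in the library labelled knockout and 0.14 to 0.21 in the library labelled wildtype.

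Split by Malat1, thinned cells with none of its UMIs (354 in the library labelled knockout, 477 in the library labelled wildtype) held 0.42 members on average in the library labelled knockout and 0.45 in the library labelled wildtype. Of them, 67.8% (62.7 to 72.6) in the library labelled knockout and 65.4% (60.9 to 69.7) in the library labelled wildtype held no member. Cells with a Malat1 UMI (1079 in the library labelled knockout, 1875 in the library labelled wildtype) held 3.53 members in the library labelled knockout and 3.77 in the library labelled wildtype, and no member in 1.58% (0.920 to 2.51) of them in the library labelled knockout and 1.07% (0.653 to 1.64) in the library labelled wildtype. These splits are descriptions of cells that share a library.

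Members tended to be detected in the same cells. Over 28 pairs of 8 members in thinned microglia-like cells, the share of cells with the second gene was higher among cells with the first in 24 pairs in the library labelled knockout and 28 in the library labelled wildtype, and for 21 pairs the intervals of the 2 shares lay apart in both libraries. Thinned to 2000 UMIs, 28 pairs in the library labelled knockout and 23 in the library labelled wildtype were higher, and the intervals of 24 pairs in the library labelled knockout and 20 in the library labelled wildtype lay apart. Pairs of other genes were not counted, so nothing particular to these genes can be read from the number of pairs. Jun was detected in 85.6% of cells with a Fos UMI and 51.4% of cells without in the library labelled knockout, and in 90.5% of cells with and 59.6% of cells without in the library labelled wildtype. The same was computed without the mt-Nd4l-led and Rpl35-led clusters. There the intervals of 18 pairs in the library labelled knockout and 17 in the library labelled wildtype lay apart, 15 of them the same pairs. Jun was then detected in 85.9% (82.6 to 88.8) of cells with Fos and 72.8% (69.2 to 76.3) of cells without in the library labelled knockout, and in 90.7% (88.7 to 92.4) of cells with and 84.0% (81.5 to 86.3) of cells without in the library labelled wildtype. For Egr1 and Atf3, Atf3 was detected in 29.7% of cells with Egr1 and 14.5% of cells without in the library labelled knockout, and in 24.2% of cells with and 16.4% of cells without in the library labelled wildtype.

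**Figure D4:**
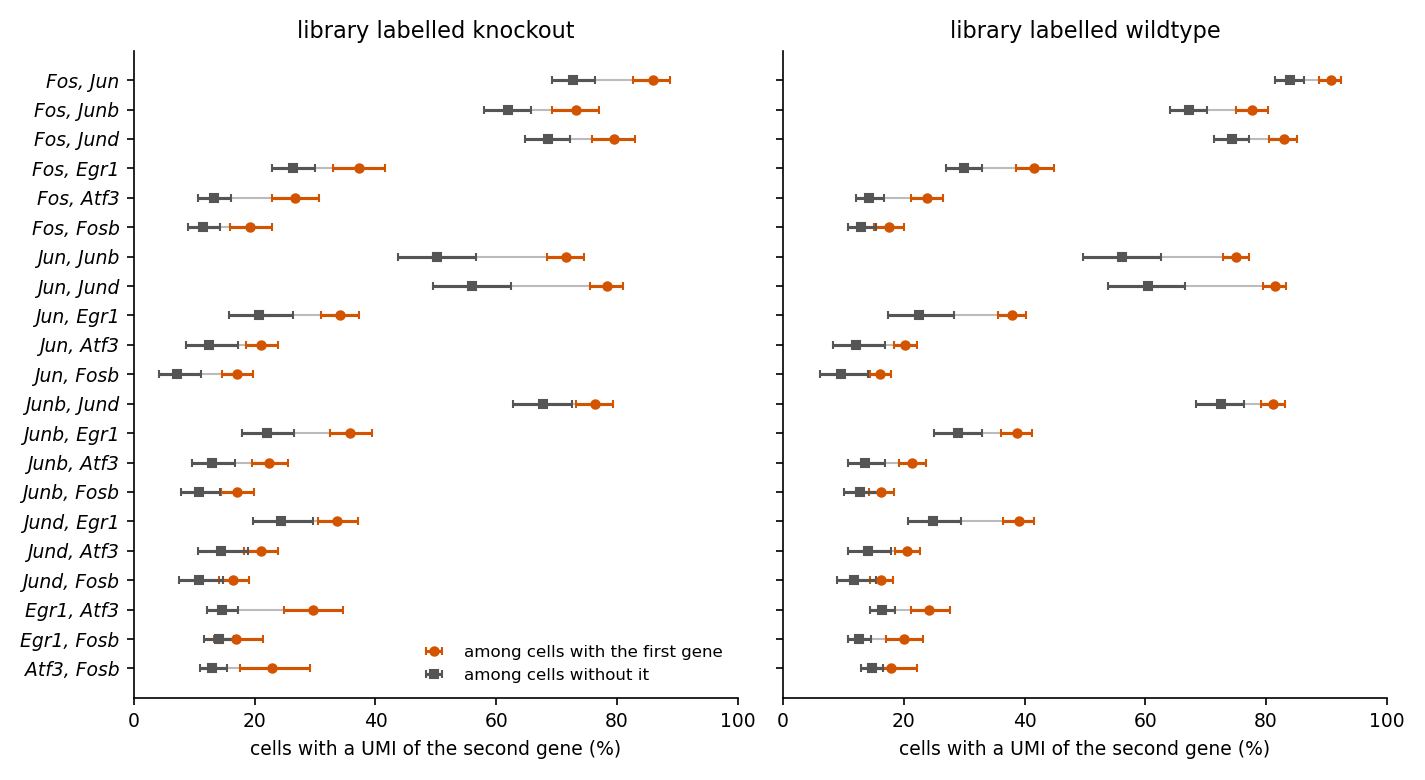
Percent of microglia-like cells with a UMI of the second gene of a pair among cells with (orange) and without (grey) a UMI of the first, after thinning to 1000 UMIs and without the mt-Nd4l-led and Rpl35-led clusters, in the library labelled knockout (left) and the library labelled wildtype (right). Bars are 95% Clopper-Pearson intervals and pairs with the rare Fosl2 are left out; in both libraries the orange point lies to the right of the grey one in each pair shown.

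Border macrophage-like cells, named for markers of the macrophages of vessels and linings, were the next largest class. They numbered 109 cells in the library labelled knockout and 105 in the library labelled wildtype. In both libraries 8 of the 13 border macrophage markers were present in at least 10% of them. Their leading genes included Apoe, H2-Eb1, Cd74, H2-Aa and H2-Ab1 beside Pf4 and Mrc1, and a mix of cell types in this class was not tested. The members in border macrophage-like cells summed to 7185 CPM in the library labelled knockout and 8469 CPM in the library labelled wildtype. That was 0.781 (0.753 to 0.810) of the microglial level in the library labelled knockout and 0.816 (0.789 to 0.843) in the library labelled wildtype. Jun was lower than in microglia-like cells in both libraries, at 0.699 (0.654 to 0.747) of their level in the library labelled knockout and 0.716 (0.675 to 0.759) in the library labelled wildtype. Egr1 was at 0.574 (0.483 to 0.677) in the library labelled knockout and 0.717 (0.612 to 0.835) in the library labelled wildtype. Fos, in contrast, was at 1.11 (1.02 to 1.21) in the library labelled knockout and 1.24 (1.14 to 1.34) in the library labelled wildtype. Of the 7 members at 100 CPM or more, 1 (Egr1) was lower than in microglia by 1.5-fold or more in the library labelled knockout, as were 26.4% of genes, and 0 in the library labelled wildtype, as were 27.5%. Junb, at 0.667 in the library labelled knockout, was at the edge of that fold. None was 1.5-fold higher, against 9.87% of genes in the library labelled knockout and 8.36% in the library labelled wildtype.

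Between the libraries, border macrophage-like cells had a summed ratio of 0.848 (0.809 to 0.890), with Jun at 0.770 (0.706 to 0.840) and Atf3 at 1.46 (1.16 to 1.84). Of 7 members, 2 (Atf3 and Fosb) were higher by 1.2-fold or more in the library labelled knockout, as were 18.8% of the 1394 genes at 100 CPM, and 2 (Jun and Junb) were lower by as much, as were 20.4%. At 1.5-fold there was none either way, against 5.38% of genes higher and 5.02% lower. The interval of Fosb, 0.937 to 1.81, included 1, and 1 cell held 27 of its 90 counts in the library labelled knockout, against 8 of 68 in the library labelled wildtype. Without the fullest cell of each library Fosb had a ratio of 1.04 (0.717 to 1.5) and no longer passed the fold, while Atf3 had 1.34 (1.04 to 1.74) and Jun 0.757 (0.691 to 0.829). The directions of Jun and Atf3 were those seen in microglia-like cells.

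Neutrophil-like cells numbered 13 in the library labelled knockout, with a median of 2213 UMIs, and 16 in the library labelled wildtype, with a median of 1969. Their members summed to 16506 CPM (15062 to 18051) in the library labelled knockout and 9762 CPM (8787 to 10815) in the library labelled wildtype. Junb led, with 6224 CPM (5350.4 to 7200.0) in the library labelled knockout and 3227 CPM (2678 to 3856) in the library labelled wildtype. Fosl2 reached 1238 CPM (867 to 1714) in the library labelled knockout and 240.0 CPM (109.8 to 456) in the library labelled wildtype, against 13.4 CPM in microglia-like cells of the library labelled knockout and 12.8 CPM in those of the library labelled wildtype. Jun was scarce, with 5 counts (172 CPM, 55.8 to 401) in the library labelled knockout and 31 counts (827 CPM, 562 to 1174) in the library labelled wildtype, of which 29 were in 1 cell. That cell also held 31 of the 31 Cx3cr1 counts and 74 of the 80 C1qa counts of the class, both microglial genes, and the other 15 cells held 2 Jun counts (69.9 CPM). For each Junb count there were 0.0276 Jun counts (0.00886 to 0.0657) in the library labelled knockout and 0.256 (0.167 to 0.383) in the library labelled wildtype, against 1.67 in microglia-like cells of the library labelled knockout and 1.99 in those of the library labelled wildtype.

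Müller glia or astrocyte-like cells, the retina's own glia caught in the sort, had 7251 CPM in 40 cells of the library labelled knockout and 11969 CPM in 52 cells of the library labelled wildtype. Fos had 1728 CPM (1551 to 1919.8) in the library labelled knockout and 3029.8 CPM (2829 to 3241) in the library labelled wildtype, and 138 of the 346 counts in the library labelled knockout were in 1 cell. Without that cell Fos had 1139.6 CPM, close to the 1139.9 CPM of microglia-like cells of that library, and the members summed to 4964 CPM in the library labelled knockout. Atf3 had 1 count in the library labelled knockout and 109 in the library labelled wildtype, 77 of these in 1 cell, and was detected in 1 of 40 cells in the library labelled knockout and 6 of 52 in the library labelled wildtype. Without the cell of 77 Atf3 counts the members summed to 10965 CPM (10572 to 11369) in the library labelled wildtype. The Fos level of that library is not given here without its fullest Fos cell.

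Retinal neurons in the sort were the lowest. Bipolar-like cells had 1040.3 CPM (798 to 1334) in the library labelled knockout and 976 CPM (747 to 1254) in the library labelled wildtype. Rod-like cells had 306 CPM (83.3 to 783) from 4 counts in the library labelled knockout and 1988 CPM (1506 to 2576) from 57 counts in the library labelled wildtype. In the library labelled wildtype 1 rod-like cell held 22 of 24 Jun counts, 24 of 26 Cx3cr1 counts and 65 of 77 C1qa counts, and the other 15 cells had 681 CPM (372 to 1143). A cluster that stayed unnamed, led by Ttr, Ptgds and mt-Co3, had the highest sum of the classes shown, 17495 CPM in 53 cells of the library labelled knockout and 15615 CPM in 62 cells of the library labelled wildtype. Monocyte-like cells had 5033 CPM in 42 cells of the library labelled knockout and 6278 CPM in 14 cells of the library labelled wildtype. T or NK-like cells had 6567 CPM in 20 cells of the library labelled knockout, and B-like cells 6993 CPM in 17 cells of the library labelled wildtype; the other library had under 10 cells of each. The part of microglial RNA or of cells captured together in these small classes was not tested.

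**Figure D5:**
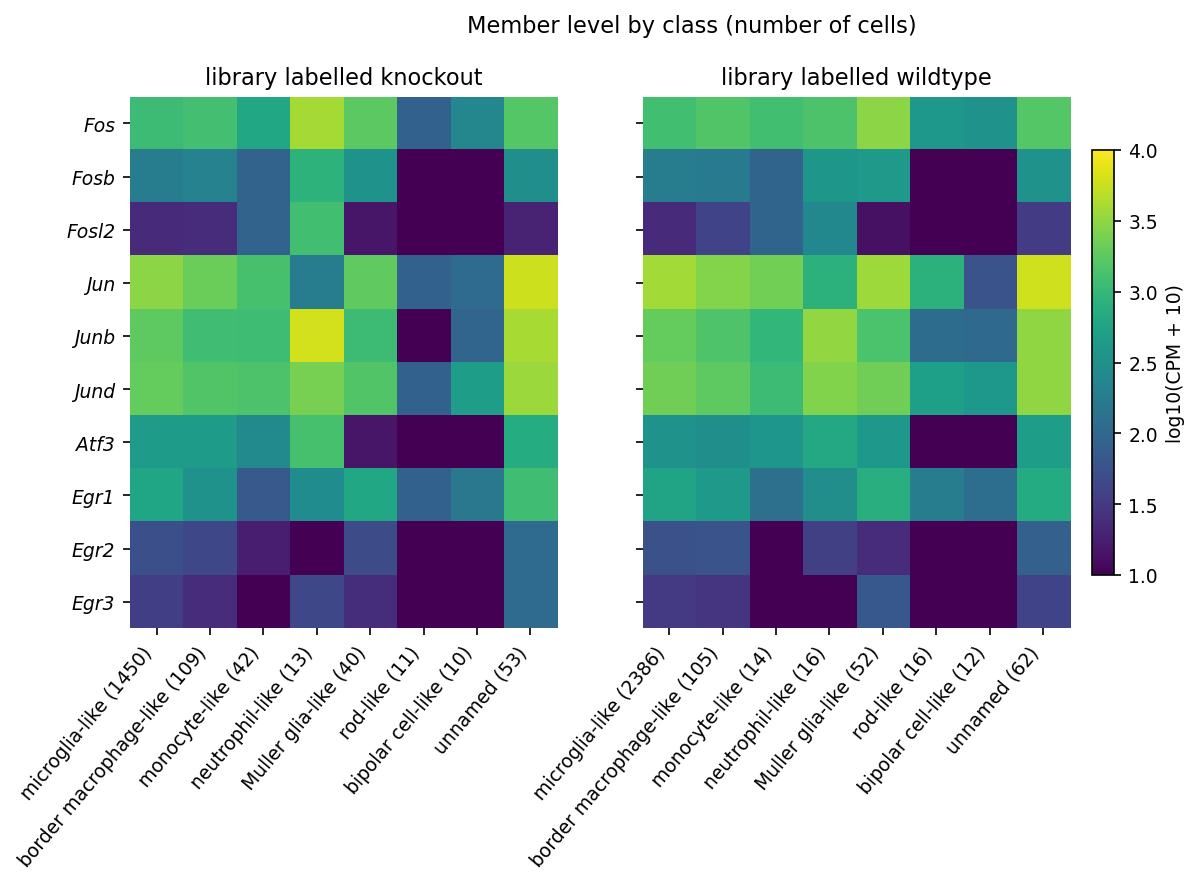
Level of each of the 10 genes, as log10(CPM + 10), by class in the library labelled knockout (left) and the library labelled wildtype (right), with the number of cells in parentheses and classes under 10 cells in a library left out. Neutrophil-like cells stand out by high Junb and Fosl2, and rod-like and bipolar-like cells have the lowest sums.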

How the data were processed

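The authors deposited raw UMI counts of every gene (rows) in every barcode (columns), 1 table for each library. The submitters' processing notes name Cell Ranger 3.1 and mm10, and per the labels the libraries were made with a 10x 3′ kit. The barcode filter and annotation are not given in the sources used here. The tables held 1785 barcodes and 7945713 UMIs in the library labelled knockout and 2735 barcodes and 11020717 UMIs in the library labelled wildtype, and 0 columns of other samples.

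Barcodes with at least 500 UMIs, 250 genes and at most 15% mitochondrial counts were kept, which removed 24 in the library labelled knockout and 40 in the library labelled wildtype. Scrublet in scanpy 1.11.5 called 3 doublets, 0.0673% of 4456 cells, so the caller has not worked; these 3 were left out and other doublets remain. Cells were clustered together (2000 variable genes, 30 components, 15 neighbours, Leiden resolution 1) without the members and the other listed genes, which gave 20 clusters. A cluster was named for a class when 3 or more of that class's markers stood in its top 10 genes (fold with 50 CPM added). Failing that, classes with 3 markers detected in 10% of the cluster's cells were compared by relative marker level and the highest was taken, and it stayed unnamed where the leading genes went against that class. Of 10 microglia-like clusters, 1 was named by leading genes and 9 by level.

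Counts were summed per library and class and given as CPM. Intervals (95%) are exact Poisson for sums, Clopper-Pearson for shares and the exact interval of the split of counts for ratios, with a floor of 3 counts. Only the ratio intervals were run on simulated data, drawn as Poisson counts, the model they assume. The simulation held no clumping of counts in single cells, so their coverage in these data was not tested. UMIs were thinned without replacement. Ratios are knockout label over wildtype label. No test was made, since there was 1 library per group. Classes under 10 cells in a library are not described.

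All members are named, with the 2 highest and 2 lowest ratios at 50 CPM and the most abundant gene of each other list. Also named are the 10 genes most like the number of members per cell among genes in at least 5% of thinned cells. Ribosomal and mitochondrial genes were left out of that ranking. Genes that lead clusters, mark classes or overlap members were named after their values were seen. Some genes that this rule names are not reported here. The members, lists and naming rule were chosen with earlier results of these data known. Positions are from GENCODE M21 on GRCm38, which is mm10, and promoters from RefSeq. Alternatives changed the cell filter, classes, clustering, scaling, depth and weight of cells.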

Additional observations from a re-analysis of the deposited data

Results flagged for a closer look

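Igfbpl1, the gene named as deleted, was detected at 3.65 CPM in the library labelled knockout and at 0.181 CPM in the library labelled wildtype, a signal above the level of the control library in a gene outside the 10 described. The labels do not give the deleted part of the gene, so whether these 3′ counts lie within it, and which library is the knockout, cannot be told apart from these data.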

How the results depend on the processing

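The summed ratio of 0.886 stayed below 1 under all 14 alternatives run (0.821 to 0.903). It was 0.838 with a marker gate per cell, 0.871 with each library clustered alone, 0.895 with ribosomal, mitochondrial and Malat1 counts removed from totals, 0.903 with median-of-ratios scaling, 0.841 with equal weight per cell, 0.821 thinned to 1000 UMIs, 0.861 without the 1% of cells with the highest member share and 0.902 without the mt-Nd4l-led and Rpl35-led clusters. Of the 14 values, 6 lay within the counting interval of the main ratio. The cells differed between settings: the gate kept 1135 in the library labelled knockout and 1897 in the library labelled wildtype. With each library clustered alone there were 1184 microglia-like cells in the library labelled knockout and 2449 in the library labelled wildtype. The difference in mean members per thinned cell, -0.34, was -0.43 with the gate and -0.49 with each library clustered alone. The gated sum was 8761 CPM in the library labelled knockout and 10458 CPM in the library labelled wildtype. The Fos to Jun difference was 34.2 percentage points in the library labelled knockout, against 22.8 thinned to 2000 UMIs, 47.1 unthinned and 13.1 without the 2 clusters; in the library labelled wildtype it was 31.0, against 14.1, 50.3 and 6.65. The cause of these changes was not tested. The median log2 ratio of members stayed between -0.21 and -0.04. Over 15 settings Jun stayed between -0.42 and -0.30 and Atf3 between 0.19 and 0.44 (log2), while Fosb changed sign in 8, Fosl2, Egr1 and Egr3 in 3 and Egr2 in 1. The settings without the 2 clusters, without the Fabp5- and Spp1-led cluster and without the fullest cell (also in border macrophage-like cells, where the Fosb log2 ratio of 0.38 became 0.05) were chosen after seeing the data. Keeping the called doublets also changed the clustering. No microglia-like cluster had a median UMI count low enough (under that of its library divided by 3) for the low-depth alternative to give a value. No paired analysis was possible because each group has 1 library.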
